A study of Mus musculus with 58 samples.

Results

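Immediate early genes are the genes whose transcription follows neuronal firing directly, without new protein having to be made. The 36 described here were chosen by name, and all 36 were found in each of the 6 count tables, among 54532 listed genes in bulk RNA-seq and 18411 in ribosome profiling. They comprise 7 genes of the AP-1 family (Fos, Fosb, Fosl2, Jun, Junb, Jund, Atf3), 4 EGR zinc-finger factors (Egr1 to Egr4), 3 NR4A orphan nuclear receptors (Nr4a1 to Nr4a3) and 4 Krüppel-like factors (Klf2, Klf4, Klf6, Klf10). A further 4 are other regulators (Npas4, Per1, Ier2, Ier5), and 5 encode synaptic or secreted effectors (Arc, Homer1, Nptx2, Bdnf, Ptgs2). The remaining genes are 5 phosphatases and kinases that feed back on the inducing pathway (Dusp1, Dusp4, Dusp5, Dusp6, Sik1) and 4 growth and stress genes (Btg2, Ier3, Gadd45b, Gadd45g). The measurements come from 58 libraries of mouse striatum, all labelled with the B6129S strain. The 16p11.2 del/+ mice are hemizygous for the mouse counterpart of the human 16p11.2 interval, and the 3g del/+ mice carry heterozygous premature stop codons, made with CRISPR, in 3 genes of that interval, Taok2, Sez6l2 and Mvp. Each line had wildtype (wt) controls of its own, no treatment is labelled, and age is not given in the labels. Bulk RNA-seq covered 4 males and 4 females of either genotype in both lines. Ribosome footprints, and RNA from the same lysates (lysate RNA), were sequenced from males only, 3 wt and 3 del/+ mice in the 3g line and 4 wt and 3 del/+ mice in the 16p11.2 line. The hemideletion and the stop codons are carried in every tissue, and the striatum was dissected whole, so that fewer cells of a type and less RNA per cell cannot be told apart.

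In the striatum many of these genes are switched on in projection neurons. This happens when glutamate and dopamine inputs raise calcium and cyclic AMP and activate the ERK kinases. CREB, which binds the cyclic AMP response element (CRE), and serum response factor, which binds the CArG box, are the factors best known for their induction. FOS, EGR and NR4A mRNAs are short-lived, and their level in dissected tissue is known to follow recent neuronal activity, while the DUSP phosphatases switch the ERK and related kinases off again.

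Promoters are shown because a shared induction element is the best known feature of this set: those of Fos, of Nr4a1 and Dusp1, which are among the genes most like it, of Npas4, another of the best known genes, and of Jund, the gene least like Fos. A RefSeq promoter (GRCm38.p6) was at hand for 28 of the 36 genes, and the 250 bases before the transcription start were read 5′ to 3′ on the strand of the gene. The other 8, Egr1, Egr3, Klf10, Ier2, Arc, Nptx2, Dusp4 and Sik1, were not searched. Elements farther upstream than 250 bases were not searched in any gene. Capitals mark TGACG or its reverse complement CGTCA, the core of the CRE, and the full palindrome TGACGTCA, which contains both. Fos itself lies at chr12:85473640-85473889 on the plus strand, Nr4a1, the gene with the largest r with Fos in both lines, at chr15:101266596-101266845 on the plus strand, and Npas4 at chr19:4989972-4990221 on the minus strand. Dusp1, at chr17:26508473-26508722 on the minus strand, holds the full palindrome, and Jund, at chr8:70697489-70697738 on the plus strand, had the smallest r with Fos in both lines.
Fos: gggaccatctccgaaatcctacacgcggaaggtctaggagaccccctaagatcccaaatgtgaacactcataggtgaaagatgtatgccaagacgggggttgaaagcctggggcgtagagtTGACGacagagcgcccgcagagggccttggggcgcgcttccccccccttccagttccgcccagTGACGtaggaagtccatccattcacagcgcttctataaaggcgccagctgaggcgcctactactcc
Nr4a1: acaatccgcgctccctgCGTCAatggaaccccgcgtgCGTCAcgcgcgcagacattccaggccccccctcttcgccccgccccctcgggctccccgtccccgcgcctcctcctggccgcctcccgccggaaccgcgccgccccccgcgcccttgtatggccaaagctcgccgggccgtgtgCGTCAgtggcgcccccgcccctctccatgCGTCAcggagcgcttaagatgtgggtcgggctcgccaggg
Npas4: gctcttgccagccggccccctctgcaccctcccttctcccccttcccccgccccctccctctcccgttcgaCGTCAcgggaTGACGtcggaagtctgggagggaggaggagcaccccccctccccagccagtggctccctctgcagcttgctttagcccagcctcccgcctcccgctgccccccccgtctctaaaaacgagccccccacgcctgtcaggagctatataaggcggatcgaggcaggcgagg
Dusp1: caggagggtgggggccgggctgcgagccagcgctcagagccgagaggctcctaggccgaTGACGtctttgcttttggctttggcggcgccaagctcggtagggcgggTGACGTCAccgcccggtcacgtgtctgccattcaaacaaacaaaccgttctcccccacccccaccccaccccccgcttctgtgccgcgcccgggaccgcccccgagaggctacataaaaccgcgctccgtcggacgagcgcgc
Jund: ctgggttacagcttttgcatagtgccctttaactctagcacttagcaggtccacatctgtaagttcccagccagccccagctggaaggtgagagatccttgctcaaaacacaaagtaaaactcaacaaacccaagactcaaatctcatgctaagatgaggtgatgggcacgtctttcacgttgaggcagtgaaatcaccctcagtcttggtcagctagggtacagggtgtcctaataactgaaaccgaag

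On both strands together, Fos held 2 copies of the core, Nr4a1 4, Npas4 2, Dusp1 3 and Jund 0. At least 1 copy was present in 18 of the 28 immediate early genes with a promoter (64.29%), against 19.74% of the 26997 other genes and 17.77% of all 32851 promoters of the same length. The full palindrome occurred in 2 genes, Dusp1 and Btg2 (7.143%, against 1.763% of other genes and 1.546% of promoters). A CArG box was found in Egr2 and Dusp5 (7.143%, against 1.619% and 1.467%), and the AP-1 site TGANTCA in a Bdnf promoter (3.571%, against 7.823% and 6.749%). All motifs were searched on both strands, and the CRE core overlaps the full CRE. These are matches of letters in a window, with no measurement of binding.

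RNA-seq libraries held 11711099 to 65529807 counts in the 3g line and 26592767 to 41300015 in the 16p11.2 line, lysate RNA 15102576 to 19122488, and footprints only 342052 to 678130. The targeted genes stood at 0.361 to 0.977 times the wt mean in del/+ animals over RNA-seq and lysate RNA, and the genotypes did not overlap in 8 of 12 combinations of table and gene. In the 16p11.2 line all 3 genes were without overlap, whereas Taok2 and Mvp overlapped in both tables of the 3g line. Xist was at 0.44 CPM and Ddx3y at 36.6 CPM in the 16p11.2 library labelled del/+ female 1. The other 7 females of the line had 315 to 875 and 0 CPM, so that these genes go against its label. Markers of striatal projection neurons summed to 3732 to 6763 CPM over all RNA-seq libraries, while 8 cortical neuron markers ranged from 648 to 2419 CPM in the 3g line and from 1563 to 2652 in the 16p11.2 line. Wt male 17 of the 3g line stood apart with the highest cortical sum, an oligodendrocyte sum of 11232 CPM (others 4237 to 7582) and an endothelial sum of 146 CPM (others 238 to 268). Del/+ male 4 of the 16p11.2 line had the lowest cortical sum and the lowest oligodendrocyte sum, 5339 CPM against 8203 to 13530.

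The levels of the 6 best known genes differed from mouse to mouse within groups, more in some groups than in others. Values are CPM, that is counts scaled to a common library total within a table (TMM). They follow the order of library numbers, which in the 3g line are 17, 24, 26 and 34 for wt males, 25, 27, 32 and 33 for del/+ males, 29, 30, 35 and 39 for wt females and 28, 31, 36 and 37 for del/+ females, and 1 to 4 in each group of the 16p11.2 line. Levels are not compared between genes or between tables. Fos, the AP-1 subunit most used as a marker of neuronal activity, was 16.1, 10.3, 13.4 and 15.6 CPM in wt males, 17.5, 25.9, 5.76 and 7.01 in del/+ males, 9.54, 15.7, 3.07 and 4.54 in wt females and 9.24, 24.8, 8.07 and 10.8 in del/+ females of the 3g line. It was 29.02, 5.34, 9.86 and 37.9 CPM in wt males, 4.24, 48.5, 2.36 and 20.7 in del/+ males, 6.90, 5.89, 20.7 and 12.6 in wt females and 26.8, 21.3, 8.61 and 19.7 in del/+ females of the 16p11.2 line. The genotypes overlapped in both sexes of both lines, and the highest and the lowest Fos values of the 16p11.2 line, 20.5-fold apart, were both in del/+ males. In the 3g line the highest value was 8.44 times the lowest.

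Junb, a partner of FOS proteins in AP-1, was 47.1, 31.2, 28.7 and 34.3 CPM in wt males, 32.9, 42.7, 17.96 and 25.2 in del/+ males, 27.96, 26.6, 18.03 and 19.9 in wt females and 25.04, 36.2, 22.5 and 23.7 in del/+ females of the 3g line. Junb was 59.2, 23.7, 34.6 and 53.04 CPM in wt males, 18.8, 75.1, 16.99 and 32.4 in del/+ males, 25.9, 32.4, 45.6 and 33.2 in wt females and 62.3, 41.4, 28.2 and 46.99 in del/+ females of the 16p11.2 line. Libraries high for Fos were high for Junb, del/+ male 2 and wt males 1 and 4 among the males of the 16p11.2 line and del/+ male 27 and del/+ female 31 in the 3g line, apart from wt male 17, which held the highest Junb of the 3g line. Egr1, a zinc-finger activator, was 315, 186, 273 and 224 CPM in wt males, 264, 307, 187 and 201 in del/+ males, 207, 235, 156 and 137 in wt females and 249, 352, 199.9 and 229 in del/+ females of the 3g line. Egr1 was 276, 203, 295 and 335 CPM in wt males, 158, 447, 88.01 and 245 in del/+ males, 186, 173, 307 and 187 in wt females and 209.8, 279, 159 and 184 in del/+ females of the 16p11.2 line. Egr1 spanned 2.57-fold in the 3g line and 5.08-fold in the 16p11.2 line, with overlap between genotypes in both sexes.

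Npas4, a factor induced by depolarisation and calcium, was 20.5, 25.4, 26.3 and 62.5 CPM in wt males, 40.2, 50.3, 11.7 and 29.3 in del/+ males, 47.1, 52.8, 12.4 and 21.4 in wt females and 27.9, 47.03, 33.4 and 39.7 in del/+ females of the 3g line. Npas4 was 31.6, 5.997, 22.4 and 16.4 CPM in wt males, 5.37, 41.1, 13.004 and 28.01 in del/+ males, 10.3, 18.6, 30.5 and 28.2 in wt females and 56.9, 22.6, 10.04 and 27.6 in del/+ females of the 16p11.2 line. Npas4 was highest in wt male 34 and in del/+ female 1, neither of which led for Fos, and spanned 5.35-fold and 10.6-fold. Arc, which acts at the synapse on AMPA receptor uptake, was 217, 112, 154 and 123 CPM in wt males, 211, 225, 70.8 and 88.7 in del/+ males, 94.3, 115, 52.1 and 59.9 in wt females and 86.5, 185, 95.1 and 113 in del/+ females of the 3g line. Arc was 304, 119, 184 and 537 CPM in wt males, 64.7, 580.4, 61.1 and 199 in del/+ males, 151, 186, 346 and 178 in wt females and 254, 309.8, 177 and 278 in del/+ females of the 16p11.2 line. Within 16p11.2 del/+ males alone, Arc was 9.50 times higher in male 2 than in male 3, and these were the extremes of the whole line.

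Nr4a1, an orphan nuclear receptor of striatal neurons, was 99.2, 84.3, 111 and 90.9 CPM in wt males, 144, 172, 49.8 and 50.9 in del/+ males, 64.2, 88.7, 40.4 and 33.3 in wt females and 81.2, 128, 65.7 and 79.95 in del/+ females of the 3g line. Nr4a1 was 131, 47.8, 89.4 and 155 CPM in wt males, 40.8, 207, 19.7 and 124 in del/+ males, 60.7, 61.1, 127 and 70.2 in wt females and 110.3, 103, 65.8 and 119.6 in del/+ females of the 16p11.2 line. Nr4a1 spanned 5.16-fold and 10.5-fold over the lines, and again del/+ male 2 was highest and del/+ male 3 lowest. For none of the 6 genes were the wt and del/+ animals of either sex and line separated.

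**Figure D1:**
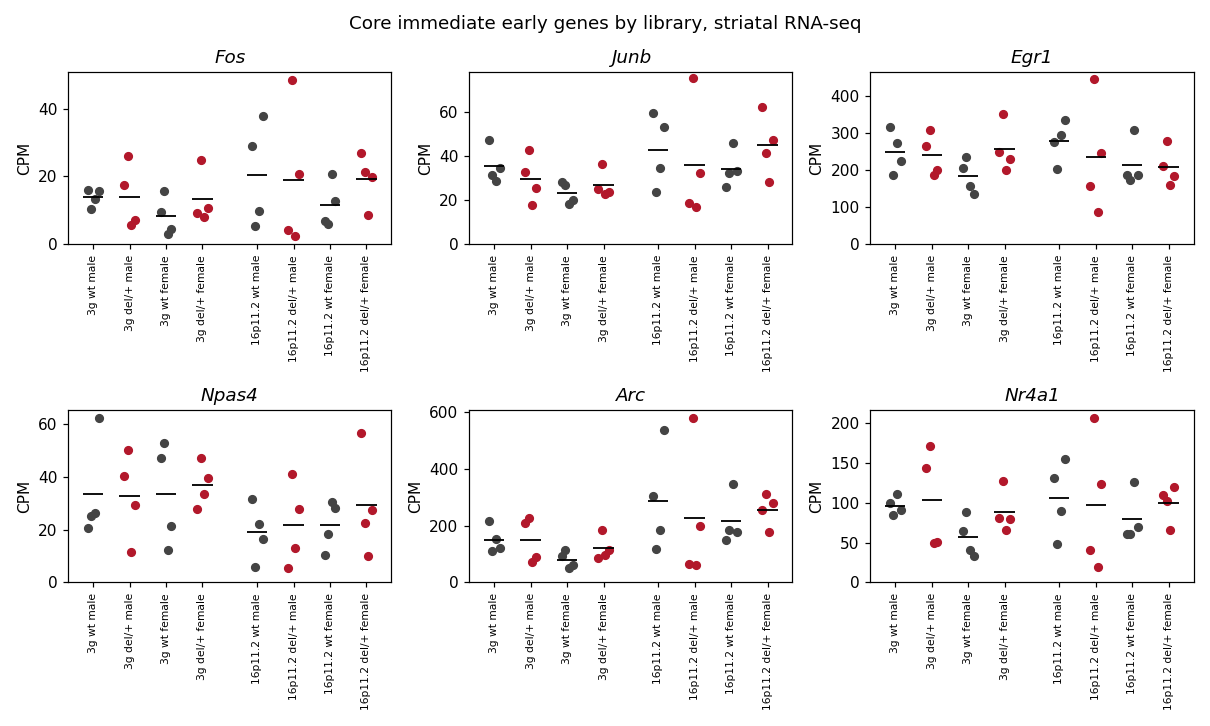
Level of 6 immediate early genes in each striatal RNA-seq library. The y axis is CPM from 0, points are libraries (grey wt, red del/+), horizontal bars are group means of 4, and the x axis gives line, genotype and sex. Wt and del/+ points overlap in every pair of groups, and 16p11.2 del/+ males span the widest range for Fos, from 2.36 to 48.5 CPM.

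In lysate RNA of other males, libraries are given in the order RNA-300, RNA-301 and RNA-318 for wt and RNA-302, RNA-303 and RNA-319 for del/+ mice of the 3g line. For the 16p11.2 line the order is RNA-498, RNA-499, RNA-505 and RNA-517 for wt and RNA-504, RNA-506 and RNA-516 for del/+ mice. Fos was 5.10, 12.7 and 2.47 CPM in wt and 10.3, 7.88 and 8.99 CPM in del/+ males of the 3g line and 10.4, 11.3, 8.39 and 5.49 CPM in wt and 10.3, 12.96 and 1.61 CPM in del/+ males of the 16p11.2 line. Arc was 109, 147 and 52.3 CPM in wt and 114, 85.6 and 95.4 CPM in del/+ males of the 3g line and 107, 87.7, 356 and 47.3 CPM in wt and 295, 221 and 51.3 CPM in del/+ males of the 16p11.2 line. Both genes were low in del/+ male RNA-516 and wt male RNA-517, while Arc was highest in wt male RNA-505. Npas4 was 7.52, 32.4 and 9.25 CPM in wt and 26.3, 25.9 and 31.6 CPM in del/+ males of the 3g line and 28.1, 32.8, 17.9 and 8.80 CPM in wt and 21.5, 29.4 and 6.80 CPM in del/+ males of the 16p11.2 line. Nr4a1 was 26.7, 35.5 and 14.02 CPM in wt and 44.3, 36.4 and 25.3 CPM in del/+ males of the 3g line and 41.1, 29.9, 23.04 and 10.9 CPM in wt and 46.7, 45.04 and 8.88 CPM in del/+ males of the 16p11.2 line. Npas4 and Nr4a1 were also lowest in del/+ male RNA-516. Egr1 was 115, 164 and 121 CPM in wt and 166, 164 and 188 CPM in del/+ males of the 3g line and 204, 155, 302.4 and 124 CPM in wt and 265, 295 and 97.2 CPM in del/+ males of the 16p11.2 line. Junb was 19.1, 31.9 and 19.8 CPM in wt and 23.6, 18.9 and 23.8 CPM in del/+ males of the 3g line and 22.6, 22.6, 17.3 and 16.5 CPM in wt and 19.03, 22.1 and 12.05 CPM in del/+ males of the 16p11.2 line. Egr1 was the only gene of these 6 whose 3g del/+ and wt libraries did not overlap, by less than the rounding of these values, and its lowest 16p11.2 value was again in del/+ male RNA-516.

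Ribosome footprints are the fragments protected by translating ribosomes, and libraries carry the number of the lysate (RIBO-516 and RNA-516 are of the same mouse). Depth limited what could be measured, and Fos had 2 to 15 footprint counts per library in the 3g line and 0 to 12 in the 16p11.2 line and was not tested there. Its levels were 11.5, 10.8 and 5.64 CPM in wt and 11.3, 22.99 and 17.997 CPM in del/+ males of the 3g line and 30.7, 16.6, 24.6 and 0 CPM in wt and 22.03, 2.78 and 5.96 CPM in del/+ males of the 16p11.2 line. Arc footprints were 155, 199.8 and 133 CPM in wt and 139.5, 113 and 121 CPM in del/+ males of the 3g line and 170.1, 112, 314 and 122 CPM in wt and 295, 339 and 56.7 CPM in del/+ males of the 16p11.2 line. Nr4a1 footprints were 71.8, 64.8 and 42.3 CPM in wt and 67.5, 76.6 and 66.6 CPM in del/+ males of the 3g line and 97.6, 52.2, 47.2 and 18.2 CPM in wt and 118, 114 and 8.95 CPM in del/+ males of the 16p11.2 line. In both genes del/+ male RIBO-516 was far below the other del/+ males, as was RNA-516, although for Nr4a1 the value rests on 3 counts. Egr1 footprints were 307, 286 and 127 CPM in wt and 227, 253 and 247 CPM in del/+ males of the 3g line and 209, 185, 339 and 159.8 CPM in wt and 317, 278 and 143 CPM in del/+ males of the 16p11.2 line. Npas4 footprints were 63.2, 64.8 and 31.04 CPM in wt and 47.3, 70.5 and 86.4 CPM in del/+ males of the 3g line and 41.8, 40.4, 26.7 and 27.2 CPM in wt and 60.6, 83.4 and 20.9 CPM in del/+ males of the 16p11.2 line. Junb footprints were 48.8, 99.9 and 42.3 CPM in wt and 76.5, 47.5 and 48.6 CPM in del/+ males of the 3g line and 41.8, 47.5, 41.05 and 30.9 CPM in wt and 38.6, 30.6 and 35.8 CPM in del/+ males of the 16p11.2 line. Del/+ male RIBO-516 was lowest of the line for Egr1, Npas4, Arc and Nr4a1, and not for Junb.

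The genes deviated together in particular mice. Taking for each library the log2 CPM of a gene minus the mean of its own group, all 36 genes were above their group mean in 16p11.2 del/+ male 2 (median deviation 0.90) and in 3g del/+ female 31 (0.43). So were 33 in 16p11.2 wt male 4 (0.49), 33 in 3g del/+ male 27 (0.33) and 31 in 16p11.2 wt female 3 (0.44). Conversely, 0 of 36 were above it in 16p11.2 wt male 2 (median -0.43), 1 in del/+ male 1 (-0.48), 2 in del/+ male 3 (-0.66) and 3 in del/+ female 3 (-0.33) of that line. Only 1 was above it in each of 3g del/+ male 32 (-0.30) and wt male 24 (-0.26). The median deviation over all genes tested lay between -0.014 and 0.016 in every library. The set thus moved together in these mice. The scaling within a table itself holds the median over all genes near 0, so that this median is no separate check. Among lysate RNA libraries of the 16p11.2 line, 2 of 35 genes were above the group mean in del/+ male RNA-516 (median -0.60) and 4 in wt male RNA-517 (-0.43), against 33 in del/+ male RNA-504 and 31 in del/+ male RNA-506.

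**Figure D2:**
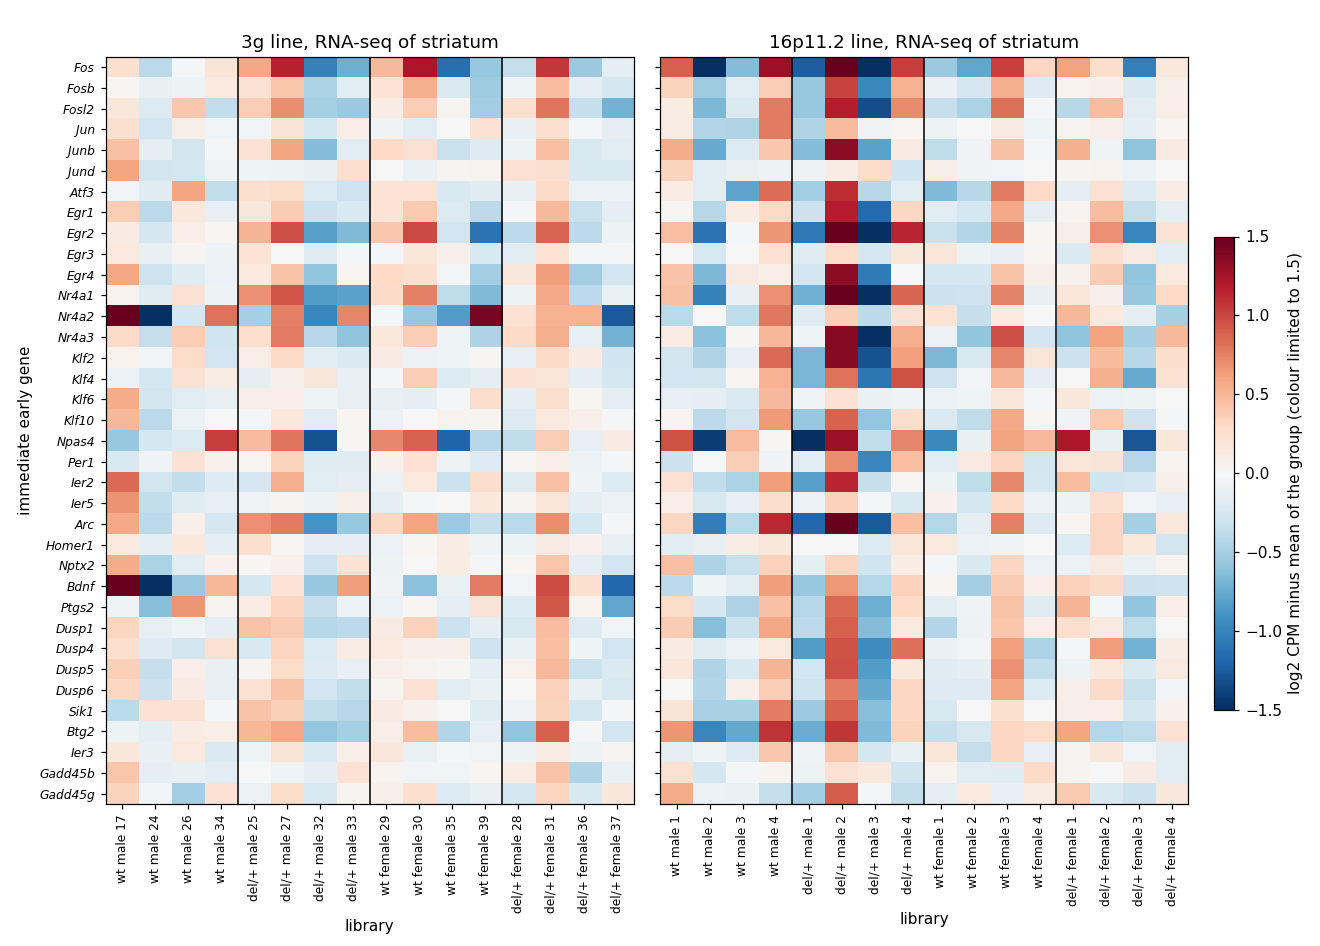
Deviation of each of the 36 genes (rows) from the mean of its group in each RNA-seq library (columns), in log2 CPM, with colour limited to 1.5 in either direction and black lines between groups. Whole columns are red in 16p11.2 del/+ male 2 and 3g del/+ female 31, where all 36 genes lie above the mean, and nearly whole columns are blue in 16p11.2 wt male 2 and del/+ male 3.

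The animal-to-animal spread was measured as the standard deviation (SD) of log2 CPM within groups, pooled over the groups of a table. In RNA-seq the median SD of the 36 genes was 0.300 in the 3g line and 0.502 in the 16p11.2 line, against 0.184 and 0.224 over all genes tested. The median gene of the set ranked at the 69.8 percentile of all genes in the 3g line and at the 83.6 percentile in the 16p11.2 line. Of the 36 genes, 8 and 14 were among the 10% most variable genes. Lysate RNA gave medians of 0.288 and 0.485 (all genes 0.175 and 0.200), with 11 and 19 of 35 genes in the top 10%. Footprints gave 0.449 and 0.481 (all genes 0.355 and 0.357) over the 19 and 16 genes that passed the filter, at depths where counting error is larger. These are descriptions, with no test.

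Spread differed by role. NR4A receptors had the largest median SD in both RNA-seq tables (0.615 in the 3g and 0.858 in the 16p11.2 line), and KLF genes the smallest in the 3g line (0.218). The smallest of the 16p11.2 line was that of the growth and stress group (0.338). The 5 most variable genes of the 3g line were Nr4a2 (SD 1.17), Bdnf (1.06), Fos (0.83), Npas4 (0.78) and Egr2 (0.70). Those of the 16p11.2 line were Fos (1.32), Egr2 (1.25), Npas4 (1.04), Arc (0.96) and Nr4a1 (0.91). Nr4a2, a receptor better known from dopamine and cortical neurons, and Bdnf, a neurotrophin that striatal neurons receive mostly from cortex, were thus the most variable in the 3g line, with SDs of 0.41 and 0.45 in the other. The steadiest were Homer1 (0.14), Egr3 (0.15) and Ier3 (0.15) in the 3g line and Jund (0.17), Homer1 (0.19) and Klf6 (0.20) in the 16p11.2 line. Counting of total Homer1 reads does not separate the activity-induced short form from the constitutive long scaffold.

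Co-variation was examined with Fos as the reference gene, on deviations from the group mean over the 16 RNA-seq libraries of a line, by a two-sided permutation test adjusted over the 35 genes of the line. The permutation did not allow for the removed group means, so its p-values are too small, by an amount that was not measured. In the 3g line all 35 genes had a positive Pearson r with Fos (median 0.63, from 0.074 for Jund to 0.93), and 19 had an adjusted p under 0.05, as did 19 by Spearman's rho. All 35 were again positive in the 16p11.2 line (median 0.84, from 0.032 for Jund to 0.97), with 31 passing by r and 30 by rho. Not passing there were Gadd45b, Gadd45g, Homer1 and Jund. With the adjustment made over all genes tested, 7 of 35 passed in the 3g line (0.0454% of all genes) and 25 in the 16p11.2 line (2.99% of all genes). Leaving out the libraries farthest from the median of Fos, wt female 30 and del/+ male 27 of the 3g line and del/+ males 2 and 3 of the 16p11.2 line, the median r was 0.56 and 0.79, with 19 and 27 genes above 0.5. Within sexes the median r was 0.59 in males and 0.62 in females of the 3g line, and 0.89 and 0.76 in the 16p11.2 line. The libraries share depth and scaling within a table. The r of these genes to all other genes had a median of -0.0082 and -0.019. The scaling tends to hold this median near 0, so that it is no check on what the libraries share.

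Of the 5 genes most like Fos in each line, all 5 were shared between the lines. In the 3g line they were Nr4a1 (r 0.93, rho 0.95), Arc (0.93, 0.94), Egr2 (0.92, 0.93), the MAP kinase phosphatase gene Dusp1 (0.92, 0.92) and the AP-1 gene Fosb (0.91, 0.91), each with a permutation p of 1e-05, the smallest that 100000 resamples allow, and an adjusted p of 5.83e-05. In the 16p11.2 line they were Nr4a1 (r 0.97, rho 0.95), Dusp1 (0.96, 0.95), Fosb (0.96, 0.94), Arc (0.95, 0.94) and Egr2 (0.95, 0.94), each again at the smallest permutation p of 1e-05. Without the farthest libraries r stayed at 0.86 to 0.91 in the 3g line and at 0.92 to 0.95 in the 16p11.2 line for these 5 genes. Copies of the CRE core and r with Fos did not go together throughout the set. Nr4a2, with 4 cores, had an r of 0.20 in the 3g and 0.57 in the 16p11.2 line, and Dusp6, with 0, had 0.83 and 0.91. Egr3, an EGR factor with high basal striatal expression, had an r of 0.95 in males and -0.44 in females of the 16p11.2 line. This contrast was picked after the values were seen and was not tested. The females include del/+ female 1, whose sex-linked genes go against its label.

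Over all 630 pairs of the 36 genes the median r was 0.49 in the 3g line and 0.69 in the 16p11.2 line, and 308 (48.9%) and 464 (73.7%) pairs were above 0.5. Of the pairs of these genes with any other gene tested, 8.78% and 9.04% exceeded 0.5. In lysate RNA the median pair r was 0.28 over 6 mice of the 3g line and 0.66 over 7 mice of the 16p11.2 line. Footprints gave 0.33 and 0.24 over the genes that passed the filter.

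Some of the genes ran with markers of cortical neurons in the 3g line, as did a large part of all genes. This relation was examined after the data had been seen, and its permutation p has the same limit as that of the relation with Fos. Over the 16 libraries, 10 of 36 genes correlated with the summed level of the 8 cortical neuron markers at an adjusted permutation p under 0.05. The same 10, each with a positive r, passed with the adjustment over all genes, where 38.8% of all genes did in either direction. Over the 36 genes the median r was 0.30, against -0.037 over all genes, and 30 were positive, against 48.4%. An r above 0.5 was found for 11 of them, against 24.2% of all genes. The 10 genes are given by r. Bdnf (r 0.94) and Ier5 (0.93) led. Jund (0.88), Klf6 (0.87), Nr4a2 (0.86) and the secreted pentraxin gene Nptx2 (0.85) came next, followed by Jun, Klf10, Ier2 and Gadd45b (0.70 to 0.79). Fos (0.077), Nr4a1 (-0.075) and Arc (0.23) had small r with that sum. Without the farthest libraries, wt male 17 and wt female 39, r was 0.91 for Bdnf, 0.87 for Ier5, 0.85 for Jund, 0.65 for Klf6, 0.82 for Nr4a2 and 0.89 for Nptx2. Without wt male 17 alone 8 genes passed. By Spearman's rho 9 passed.

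Bdnf was 9.22, 0.470, 1.42 and 3.01 CPM in wt males, 1.94, 2.70, 1.56 and 3.65 in del/+ males, 1.72, 1.15, 1.67 and 3.07 in wt females and 4.86, 9.86, 5.92 and 2.17 in del/+ females of the 3g line. Nr4a2 was 32.3, 1.93, 8.05 and 17.01 CPM in wt males, 5.74, 13.8, 4.11 and 13.6 in del/+ males, 7.55, 5.16, 4.26 and 20.7 in wt females and 26.8, 33.1, 33.1 and 9.58 in del/+ females. The cortical marker sum was 2419, 648, 919 and 987 CPM in wt males, 866, 940, 779 and 1197 in del/+ males, 825, 779, 856 and 1412 in wt females and 1374, 1644, 1178 and 891 in del/+ females. Both genes were thus high in wt male 17 and in del/+ females 28, 31 and 36, libraries with high cortical sums, and low in wt male 24, which had the lowest sum. Wt female 39, also with a high sum, was high for Nr4a2 and less so for Bdnf. Del/+ male 33, whose sum was above that of del/+ female 36, had lower values of both genes than that mouse. Whether the amount of cortical tissue in the dissection sets their level was not tested. In the 16p11.2 line, where the cortical sum varied less, Ier5 alone passed (r 0.77). Klf6 passed in addition when adjusted over all genes (13.1% of all genes in either direction). Without del/+ male 4, 18 genes passed.

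**Figure D3:**
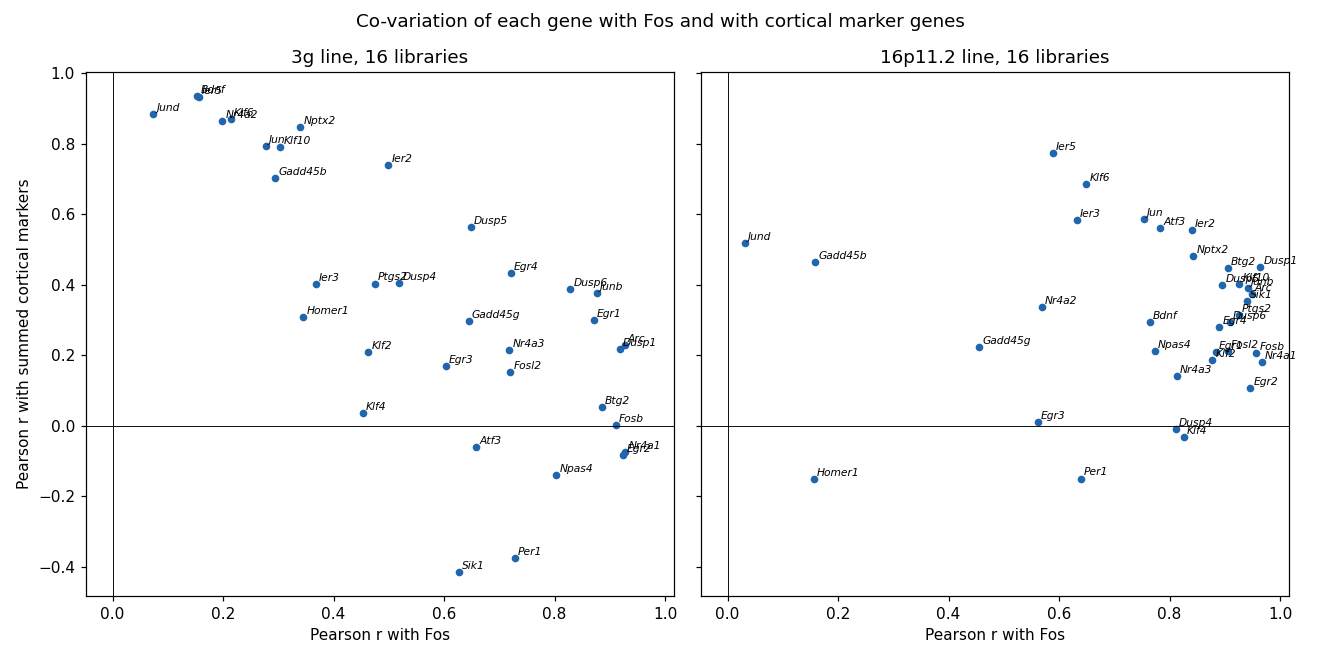
Pearson r of each gene with Fos (x axis) against its r with the summed cortical markers (y axis), over the 16 RNA-seq libraries of each line, group means removed. In the 3g line Nr4a1, Arc, Egr2, Dusp1 and Fosb lie far right near 0 on the y axis, while Bdnf, Ier5, Jund, Klf6 and Nr4a2 lie at the top. In the 16p11.2 line most genes lie to the right, with Jund (0.032) farthest left.

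Whether the genes differed between genotypes was tested in each line, sex and assay across all genes with edgeR's quasi-likelihood test and Benjamini-Hochberg adjustment, and 0 of the 36 had an adjusted p under 0.05 in any comparison. In 3g females, however, nearly the whole set lay higher in del/+ mice. Of the 36 genes, 32 had a log2 fold change above 0 (49.5% of all genes tested) with a median of 0.31 (all genes -0.0012). At an unadjusted p under 0.05, 17 were higher and 0 lower, where 5.3% of all genes were higher and 5.73% lower. The 36 genes co-vary between mice (median pair r 0.49 in this line), so a few mice can move many of them. Such counts, here and in the comparisons below, are therefore not counts of independent observations. When both sexes of 3g mice entered 1 fit, with the 16 libraries sharing an estimate of spread, 11 were higher and 0 lower (3.62% of all genes in either direction). The share with an adjusted p under 0.05 was 0.00526% of all genes. These 17 were 4 of 4 KLF genes, 3 of 3 NR4A receptors, 4 of 5 effectors, 2 of 4 other regulators, 2 of 5 feedback genes, 1 of 4 EGR factors and 1 of 7 AP-1 genes, and 0 of 4 growth and stress genes.

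The smallest p-values in 3g females belonged to Klf10, a growth-factor-responsive repressor, to Bdnf and to Dusp6, the cytoplasmic ERK phosphatase. Klf10 was 19.2, 20.5, 21.2 and 21.01 CPM in wt and 21.98, 27.9, 26.6 and 24.7 CPM in del/+ females, with every del/+ value above every wt value (log2 fold change 0.30, SE 0.069, adjusted p = 0.211). Dusp6 was 30.7, 34.7, 26.8 and 27.8 CPM in wt and 40.5, 51.4, 37.4 and 34.04 CPM in del/+ females, where del/+ female 37 fell within the wt range (log2 fold change 0.45, SE 0.12, adjusted p = 0.254). For Bdnf, whose values are given above, the difference was larger and the groups overlapped through del/+ female 37 (log2 fold change 1.53, SE 0.40, adjusted p = 0.254). Groups did not overlap for 3 of 36 genes, Klf10, Nptx2 and Dusp5, in each of which del/+ was higher, as in 2.45% of all genes. Fos itself had a log2 fold change of 0.72 (SE 0.47, adjusted p = 0.587).

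Several measurements moved with this difference. Del/+ female 31, in which all 36 genes were above the group mean, carried part of it: without it 9 genes were higher and 1 lower at an unadjusted p under 0.05 (7.06% of all genes), and the median was 0.18. In the same comparison 7 of 8 cortical markers were higher (median 0.68, 0 at an unadjusted p under 0.05), with summed levels of 779 to 1412 CPM in wt and 891 to 1644 CPM in del/+ females. Of 6 tested choroid plexus markers 0 were above 0 and 3 lower at an unadjusted p under 0.05 (median -0.38), with summed levels of 33.6 to 37.8 CPM in wt and 17.8 to 29.6 CPM in del/+ females. Oligodendrocyte markers had 0 of 6 above 0 and 2 lower (median -0.14, sums of 5801 to 7582 and 5506 to 6239 CPM), and astrocyte markers 0 of 5 and 1 (median -0.080, 870.3 to 948 and 828.7 to 896 CPM). Sums of projection neuron markers were 5221 to 6046 CPM in wt and 5350 to 6073 CPM in del/+ females. Those of endothelial markers were 238 to 256 and 239 to 252 CPM, and those of microglia 364 to 423 and 375 to 395 CPM. The part of any of these cell types in the difference was not tested. A second list of 24 tested activity-induced genes outside the 36 had 9 genes higher at an unadjusted p under 0.05 and 0 lower (median 0.087), and 26 genes of the upstream receptors, kinases and factors had 2 and 0. By DESeq2 3 genes were called, Dusp6, Klf10 and Nptx2, where it called 118 of all genes (0.659%) against 1 by edgeR. Without a filter on low counts edgeR called 5, Bdnf, Dusp6, Klf10, Nptx2 and Nr4a2, and 158 of all genes (0.436%). Without wt female 39 edgeR called 1, Nr4a2, and 175 of all genes (0.915%). Of the genes called under these alternatives, Bdnf, Klf10, Nptx2 and Nr4a2 are among those that ran with the cortical sum in this line. Their r with it was 0.94, 0.79, 0.85 and 0.86, while that of Dusp6 was 0.39 and did not pass. Whether the cortical share of the tissue sets their difference was not tested.

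In 3g males 1 of 36 genes was higher at an unadjusted p under 0.05 and 0 lower, where 1.44% of all genes passed in either direction, and 0 were called, as among all genes. The median log2 fold change was -0.045, with 15 genes above 0 (50% of all genes). The higher gene was Klf4, a pluripotency-associated Krüppel-like factor (log2 fold change 0.39, SE 0.15, adjusted p = 0.974). Ptgs2, which encodes cyclooxygenase-2, came next (log2 fold change -0.49, SE 0.27, adjusted p = 0.974), then Ier3 (log2 fold change -0.26, SE 0.15, adjusted p = 0.974). DESeq2 called 0. Leaving out del/+ male 27 or del/+ male 32 gave 0, and leaving out wt male 24 gave 0 higher and 1 lower. The 95% interval of Fos ran from -0.91 to 0.94 on the log2 scale. With both sexes in a model, 4 genes were higher at an unadjusted p under 0.05 (5.7% of all genes in either direction), with 0 called by edgeR (0.00517% of all genes) and 0 by DESeq2. They were Klf4 (log2 fold change 0.39, SE 0.11, adjusted p = 0.821), the shear-stress factor Klf2 (log2 fold change 0.30, SE 0.11, adjusted p = 0.851), the clock gene Per1 (log2 fold change 0.19, SE 0.08, adjusted p = 0.861) and Fosl2. It was 12 higher without wt male 17, the library with the high cortical sum (9.94% of all genes), 6 higher and 1 lower without wt male 26 (8.01%), and 2 higher without del/+ male 27, wt female 35, wt female 39 or del/+ female 31.

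The difference between the sexes was itself tested as a genotype-by-sex term. In the 3g line 0 of 36 genes passed the adjusted threshold with edgeR and 0 with DESeq2, and 0% of all genes did. At an unadjusted p under 0.05 the difference was larger in females for 4 genes, against 2.69% of all genes in either direction. They were Ptgs2 (log2 fold change 1.35, SE 0.44, adjusted p = 0.901), Bdnf (log2 fold change 2.004, SE 0.90, adjusted p = 0.901), the nuclear ERK phosphatase gene Dusp5 (log2 fold change 0.55, SE 0.25, adjusted p = 0.901) and Nr4a2. Leaving out each library in turn gave 1 to 8 such genes, with 1 without wt male 17, del/+ male 32, wt female 35 or del/+ female 31. It was 2 without del/+ male 25, wt female 29, wt female 30, del/+ female 28 or del/+ female 36, 7 without del/+ male 27 (2.2% of all genes) and 8 without wt male 24 (5.54%). Bdnf and Nr4a2 are among the genes that ran with the cortical sum, which in males was highest in wt male 17. The term gave 1 gene in the 16p11.2 line, Jund (log2 fold change 0.36, SE 0.17, adjusted p = 0.835), against 4.33% of all genes, and 0 with an adjusted p under 0.05 by edgeR or DESeq2. Leaving out del/+ male 2 gave 10 such genes (6.44% of all genes), wt male 2 gave 2 and any other mouse 0 or 1, with 0 without del/+ female 1.

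In 16p11.2 males 0 of 36 genes passed even an unadjusted p under 0.05, against 5.82% of all genes. Neither edgeR (0.106% of all genes) nor DESeq2 called any. The median log2 fold change was -0.080, with 12 genes above 0 (49.1% of all genes). The smallest p-values were those of the stress-induced genes Gadd45b (log2 fold change -0.25, SE 0.15, adjusted p = 0.748) and Gadd45g (log2 fold change -0.39, SE 0.32, adjusted p = 0.772) and of Jund, the AP-1 subunit least dependent on activity (log2 fold change -0.24, SE 0.15, adjusted p = 0.748). With Fos between 2.36 and 48.5 CPM in the del/+ males alone, its 95% interval ran from -1.95 to 1.75 on the log2 scale. Differences within that range in either direction remain compatible with these data. Without del/+ male 2 the count was 7, all lower (7.46% of all genes in either direction), with a median of -0.31.

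In 16p11.2 females 2 genes were higher at an unadjusted p under 0.05, where 4.47% of all genes passed, and 0 were called by edgeR (0.144% of all genes) or DESeq2. They were Btg2, an antiproliferative gene (log2 fold change 0.61, SE 0.24, adjusted p = 0.998), and the AP-1 gene Jun (log2 fold change 0.19, SE 0.081, adjusted p = 0.998), followed by Dusp1 (log2 fold change 0.37, SE 0.17, adjusted p = 0.998). The median was 0.16 with 29 genes above 0 (49.6% of all genes). This depended on single mice. Without wt female 3 the count was 14, all higher (5.1% of all genes), without del/+ female 3 it was 5 and without wt female 4 it was 1. Without wt female 1, wt female 2, del/+ female 4 or del/+ female 1, the library whose sex-linked genes go against its label, it was 0. With both sexes in a model 0 of 36 genes had an unadjusted p under 0.05 (6.39% of all genes), and 0 were called by edgeR (0.18% of all genes) or DESeq2. Without del/+ female 1 the count was again 0. First by p were Ier5 (log2 fold change -0.14, SE 0.10, adjusted p = 0.821), Atf3 (log2 fold change 0.40, SE 0.30, adjusted p = 0.822) and Ptgs2 (log2 fold change 0.28, SE 0.22, adjusted p = 0.834).

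**Figure D4:**
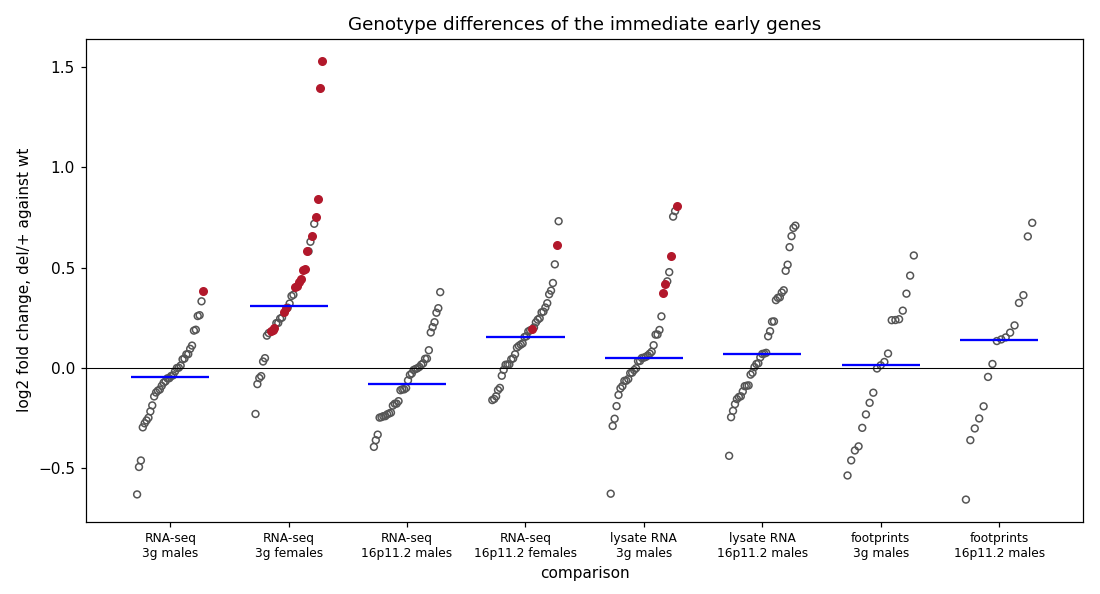
Log2 fold change of each gene, del/+ against wt, in 8 comparisons by line, sex and assay. Each point is a gene that passed the filter, ordered by value, filled red at an unadjusted p under 0.05 and open otherwise, with the median as a blue line. In 3g females 32 of 36 points lie above 0 and 17 are filled, and in 16p11.2 males 0 are filled.

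Between the sexes of the 3g line, 9 of 36 genes were lower and 0 higher in females at an unadjusted p under 0.05 with genotype as a covariate (5.86% of all genes in either direction, median -0.17). None of the 36 was called by edgeR (0.134% of all genes) or DESeq2. The smallest p-values were those of Ier3 (log2 fold change -0.24, SE 0.085, adjusted p = 0.629), Dusp5 (log2 fold change -0.38, SE 0.14, adjusted p = 0.629) and Nr4a3 (log2 fold change -0.57, SE 0.21, adjusted p = 0.688), and Arc, Junb, Egr3, Fosl2, Sik1 and Homer1 also passed. Among the settings that left out a mouse the count ran from 3, without del/+ male 25, del/+ male 27 or wt female 39, through 5 without wt female 35 to 16, without del/+ female 31 (5.05% of all genes). Lower in females of the 16p11.2 line were 3 genes (7.62% of all genes), with 0 called by edgeR (0.00546% of all genes) or DESeq2. They were Dusp4 (log2 fold change -0.70, SE 0.27, adjusted p = 0.62), Egr3 (log2 fold change -0.24, SE 0.092, adjusted p = 0.62) and Ptgs2 (log2 fold change -0.49, SE 0.22, adjusted p = 0.647). Leaving out del/+ male 2 gave 0 such genes, del/+ male 1 or wt female 3 gave 5 and del/+ male 3 gave 6. The library labelled del/+ female 1, whose sex-linked genes go against its label, entered as a female, and without it the count was 3 with a median of -0.17, against -0.13 with it.

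In lysate RNA of 3g males, 4 of 35 genes were higher in del/+ mice at an unadjusted p under 0.05 and 0 lower, against 2.85% and 2.07% of all genes, and 0 were called (0.0209% of all genes). All 4 were without overlap, as were 4.24% of all genes with del/+ higher. Fosb, an AP-1 gene whose truncated product accumulates with repeated striatal activation, was 9.88, 12.3 and 9.43 CPM in wt and 17.6, 19.1 and 18.5 CPM in del/+ males (log2 fold change 0.81, SE 0.13, adjusted p = 0.065), on 160 to 327 counts. The 3 wt values lay close together and so did the 3 del/+ values. Fosb was not called by edgeR with the filter, but DESeq2 gave an adjusted p of 0.00134, edgeR without the filter 0.0327 and edgeR without wt male RNA-301 0.0387. Npas4 was called in that last setting as well, with an adjusted p of 0.000191 by edgeR and a log2 fold change of 1.74, among 6 of all genes. The others were Egr1 (log2 fold change 0.37, SE 0.13, adjusted p = 0.94), Fosl2 (log2 fold change 0.42, SE 0.15, adjusted p = 0.94) and Gadd45b. In RNA-seq of other 3g males Fosb had -0.073 (SE 0.18, adjusted p = 0.979). The median over the 35 genes was 0.052 (all genes -0.0014), and the count at an unadjusted p under 0.05 was 9 without wt male RNA-301 (3.57% of all genes), 2 without wt male RNA-300, and 2 higher and 4 lower without wt male RNA-318.

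In lysate RNA of 16p11.2 males 0 of 35 genes had an unadjusted p under 0.05 (4.41% of all genes), and 0 were called by edgeR (0.133% of all genes) or DESeq2. The first by p were Klf4 (log2 fold change 0.70, SE 0.35, adjusted p = 0.99), Fosl2 (log2 fold change 0.71, SE 0.35, adjusted p = 0.99) and Fosb (log2 fold change 0.48, SE 0.27, adjusted p = 0.99). Without del/+ male RNA-516, the mouse in which nearly all the genes were low, 8 were higher with a median of 0.31 (5.83% of all genes), without wt male RNA-505 7 were higher (6.32%), without wt male RNA-499 2 were higher and without del/+ male RNA-506 1 was lower. Footprints of 3g males gave 0 of 19 tested genes at an unadjusted p under 0.05 (7.97% of all genes) and 0 calls by edgeR (0.0132%) or DESeq2. First by p were Per1 (log2 fold change -0.54, SE 0.27, adjusted p = 0.658), Arc (log2 fold change -0.39, SE 0.23, adjusted p = 0.681) and Fosl2 (log2 fold change -0.41, SE 0.29, adjusted p = 0.746). Footprints of 16p11.2 males gave 0 of 16 (6.15%) and 0 calls by edgeR (0.117%) or DESeq2. First were Npas4 (log2 fold change 0.72, SE 0.37, adjusted p = 0.817), Dusp6 (log2 fold change -0.66, SE 0.43, adjusted p = 0.897) and Nr4a1 (log2 fold change 0.66, SE 0.43, adjusted p = 0.897), with 3 higher and 1 lower at an unadjusted p under 0.05 without del/+ male RIBO-516. Leaving out any other single mouse gave 0 to 2 such genes in either footprint table.

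The kinases, receptors and factors upstream of these genes were tested as a list of 26. Mapk3, which encodes ERK1 and lies in the deleted interval, was the only one called in any comparison of del/+ with wt mice. It was lower in the 16p11.2 line in RNA-seq of males (log2 fold change -1.21, SE 0.12, adjusted p = 0.00128), of females (log2 fold change -0.90, SE 0.10, adjusted p = 0.00187) and in lysate RNA (log2 fold change -0.93, SE 0.13, adjusted p = 0.0107), all by edgeR with adjustment over all genes. Calls of this list between sexes or assays are not given.

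Ribosome footprints were then set against lysate RNA of the same animals, with the animal as a block, which asks whether the share of a gene among footprints exceeds its share among RNA. In the 3g line 14 of 36 genes were called by edgeR at an adjusted p under 0.05, 7 with relatively more and 7 with relatively fewer footprints, and in the 16p11.2 line 17 of 35 tested, 7 and 10, against 51.6% and 52.7% of all genes. The share of called genes was thus no higher than the background. Called in both lines, in the same direction each time, were 12 genes, 85.7% of the 3g and 70.6% of the 16p11.2 calls. Over all genes the shared calls were 81.6% and 80.2%, of which 99.8% had the same direction. Higher in footprints were Egr4, Junb, Npas4, Nptx2, Nr4a1 and Per1, and lower were Btg2, Egr3, Homer1, Klf6, Nr4a2 and Sik1, the last a kinase that restrains CREB coactivators. Btg2 (1 to 17 and 0 to 6 footprint counts in the 3g and the 16p11.2 line) did not pass the filter in footprints alone. Nor did Nr4a2 (2 to 19 and 4 to 15) in either line, or Sik1 (5 to 13) in the 16p11.2 line. They entered this comparison through lysate RNA, where they were relatively higher, which favours this direction. Of these 12, Egr3 was not called under RLE scaling or DESeq2 in either line, nor Nr4a2 under either in the 16p11.2 line, nor Sik1 by DESeq2 there. The 7 higher and 10 lower calls of the 16p11.2 line became 8 and 5 under RLE scaling and 8 and 4 by DESeq2, and the 7 and 7 of the 3g line 7 and 6 and 8 and 5.

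The strongest was Homer1 (log2 fold change -1.20, SE 0.12, adjusted p = 9.54e-11 in the 3g line, log2 fold change -1.15, SE 0.10, adjusted p = 7.93e-21 in the 16p11.2 line). Klf6 had log2 differences of -1.04 and -1.19, Btg2 of -1.29 and -1.76, Nr4a2 of -1.07 and -0.59, Per1 of 0.66 and 0.77 and Nptx2 of 0.91 and 0.90 in the 3g and the 16p11.2 line. The values of Btg2 and Nr4a2 rest on the few footprint counts given above. Dusp6 and Gadd45b were called in the 3g line alone and Egr1, Fosl2, Jund, Klf10 and Nr4a3 in the 16p11.2 line alone, and the difference between lines was not tested. Of these, Gadd45b (4 to 11 footprint counts), Klf10 (1 to 7) and Nr4a3 (2 to 12) did not pass the filter in footprints alone in the line named. Counts are per gene and not split by region, so that RNA reads outside the coding sequence enter the comparison. RLE scaling and DESeq2 moved the median over all genes from 0.030 to 0.13 and 0.11 in the 3g line and from -0.010 to 0.17 and 0.14 in the 16p11.2 line.

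In the 13 males with both libraries, mice that were high for a gene in lysate RNA were mostly high in footprints. Of the 16 genes measured in both assays and lines, 15 had a positive Pearson r between the deviations from the mean of line and genotype (median 0.59), against 73.3% of the 5818 genes measured so (median 0.23), and 7 had a permutation p under 0.05 after adjustment over the 16. Adjusted over all these genes 4 passed, Arc, Fosl2, Homer1 and Nr4a1 (3.9% of all genes). Here too the permutation did not allow for the removed means, so its p-values are too small. This matters most near the threshold, where Klf6 had an adjusted permutation p of 0.0362 and Npas4 of 0.0152 over the 16 genes. The 7 that passed over the 16 were Homer1 (r 0.95, rho 0.86), Nr4a1 (0.94, 0.91), Arc (0.90, 0.95), Fosl2 (0.79, 0.86), Egr1 (0.76, 0.70), Npas4 (0.72, 0.70) and Klf6 (0.64, 0.60), the last not passing by rho with an adjusted permutation p of 0.0686. Without the farthest animals r was 0.92 for Homer1, 0.84 for Nr4a1, 0.83 for Arc, 0.76 for Fosl2, 0.59 for Egr1, 0.61 for Npas4 and 0.56 for Klf6. Within the 3g line (6 mice) and the 16p11.2 line (7 mice) r was 0.76 and 0.97 for Homer1, 0.76 and 0.99 for Nr4a1, 0.92 and 0.91 for Arc, 0.30 and 0.97 for Egr1 and 0.38 and 0.89 for Npas4. The exception to the positive sign was Jun (-0.33).

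**Figure D5:**
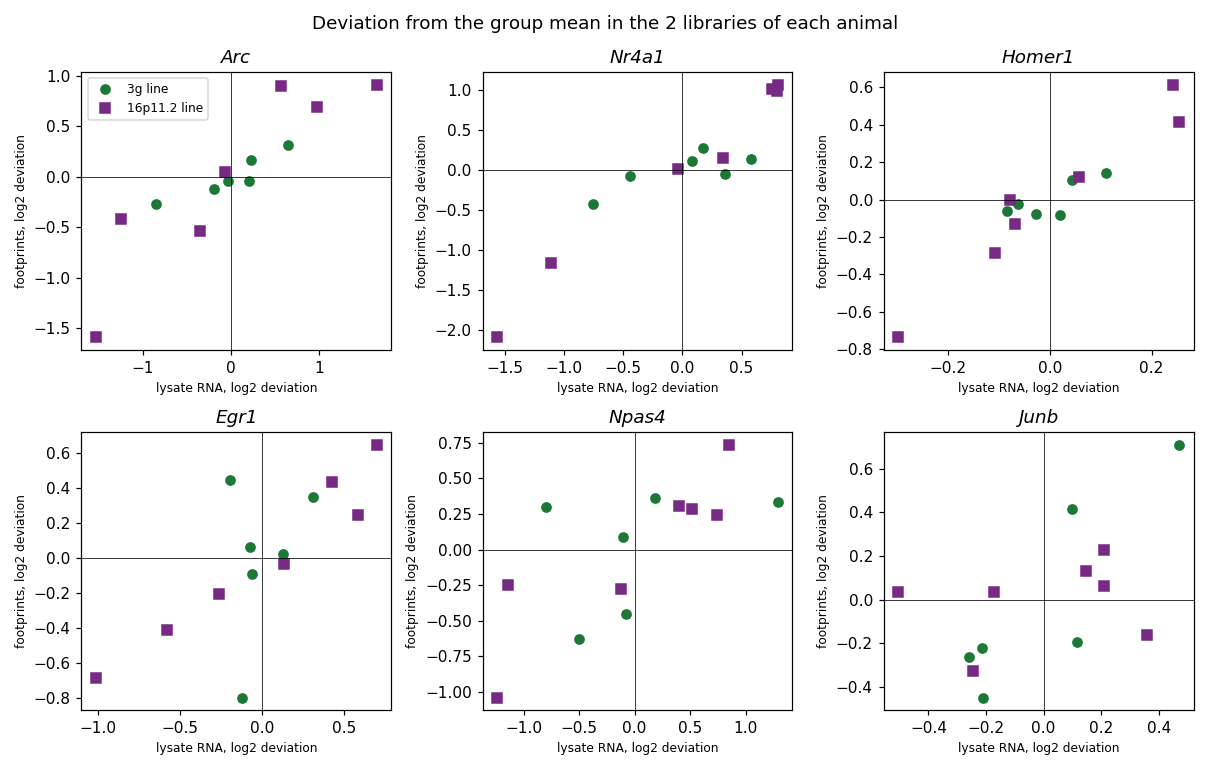
Deviation from the mean of line and genotype in lysate RNA (x axis) and in footprints (y axis), both in log2 CPM, for 6 genes, with a point for each of the 13 males (green circles 3g line, purple squares 16p11.2 line). The points of Arc, Nr4a1 and Homer1 run along a rising line, with r of 0.90, 0.94 and 0.95.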

How the data were processed

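Striatal RNA was measured in 58 libraries: 32 of bulk RNA-seq, 13 of ribosome footprints and 13 of RNA from the same lysates. The values used are raw counts per gene, deposited by the authors without normalization. RNA-seq counts came from a stranded, ribosomal-RNA-depleted kit and the bcbio-nextgen pipeline, and the submitters' processing notes name HTSeq with mm10, and Bowtie2 with mm39. Totals per library set the precision (342052 to 65529807). Animals are the replicates. The 36 genes and all lists were chosen with earlier results of these data known. CPM were TMM-scaled within a table, and log2 CPM used a prior count of 2. Genotype, sex and assay contrasts were fitted over all genes in R 4.3.3 with edgeR 4.0.16 (filterByExpr, quasi-likelihood test, Benjamini-Hochberg adjustment) and a threshold of 0.05. The animal was a block for footprints against lysate RNA. Co-variation used Pearson's r and Spearman's rho with 100000 permutations, adjusted over these genes and, as an alternative chosen after seeing the data, over all genes tested. The permutations did not allow for the removed group means. Named are the 6 core genes, in each contrast every called gene and the 3 genes with the smallest p (5 of those called for footprints against lysate RNA), the 5 genes with the largest SD and the 5 most like Fos. Genes named beside a count of 5 or fewer, or as steadiest, were named after their values were seen. Of the 36 genes, 36 passed the filter in RNA-seq, 35 in lysate RNA (Atf3 did not), and 19 and 16 in footprints. Alternatives were DESeq2 1.42.0, RLE scaling, no filter (minimum total count 1), all 16 libraries of a line in a model, a replicate block, and leaving out each library. The fits and correlations were tested on simulated data.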

Additional observations from a re-analysis of the deposited data

Results flagged for a closer look

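In groups of 4 libraries, a value was picked out where its gap to the nearest other exceeded Dixon's critical value, which chance alone does in about 1 of 20 groups. Of 60 groups tested for the 6 core genes, 4 were picked out. Fos was 24.8 CPM in 3g del/+ female 31, against 8.07 to 10.8 in the other del/+ females. Npas4 was 62.5 CPM in 3g wt male 34, against 20.5 to 26.3 in the other wt males. In 16p11.2 wt female 3, Egr1 was 307 CPM, against 173 to 187, and Nr4a1 127 CPM, against 60.7 to 70.2 in the other wt females. Of 10 groups tested for the median deviation of the 36 genes, 1 was picked out, again through 3g del/+ female 31, at 0.43 against -0.14 to -0.077 in the other del/+ females. Leaving out del/+ female 31 or wt female 3 changed the counts at an unadjusted p as given with the comparisons of 3g and 16p11.2 females. In the genotype-by-sex test 0 of 36 genes passed the adjusted threshold by edgeR in either line, with 4 and 1 at an unadjusted p under 0.05.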

How the results depend on the processing

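The number of these genes called between genotypes was 0 under most alternatives. In 3g females it was 3 with DESeq2, 5 without a filter on low counts and 0 to 1 when each library was left out. In lysate RNA of 3g males it was 1 with DESeq2, 1 without a filter, and 0 to 2 when each library was left out. For footprints against lysate RNA, the 16p11.2 count of 17 became 11 with no replicate block. The number of genes running with the cortical sum in the 16p11.2 line, a relation examined after the data were seen, went from 1 to 18 without del/+ male 4. The causes were not tested. Of the other counts of adjusted calls, 224 equalled the main count or stayed within 1.5 times of it. Most of these were 0 under both settings. Counts at an unadjusted p moved further, as given with each comparison. Over the genes named in a comparison and those called under any of its settings, 950 values kept direction and side of the threshold, 25 passed it and 53 lost it in the same direction, and 0 turned. These genes were picked from the same data by their p, which favours a kept direction. The median log2 fold change of the set did change sign in RNA-seq as single libraries were left out. It ran from -0.31 to 0.14 in 16p11.2 males and from -0.21 to 0.084 in 3g males. All 53 lost calls were of footprints against lysate RNA. RNA-seq numbers of the 16p11.2 line are shared between genotypes but do not pair the animals, with correlations of deviations from -0.26 to 0.11, and with them as a replicate block 0 genes were called in males and 0 in females. Footprint depth (342052 to 678130 counts) left 17 and 20 of the 36 genes untested, and in 16p11.2 males the 95% interval of the Fos difference ran from -1.95 to 1.75 on the log2 scale.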
